A study of Homo sapiens with 12 samples.

Results

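The regions described here are stretches of chromatin at which the anti-BCL9 antibody gave peaks in both BCL9 KD libraries of DCIS.COM cells and in none of the 3 NS control libraries. They were chosen by the measured peak lists themselves. A window of 100 bp was set round the midpoint of every peak pair in the 5 BCL9-antibody lists. Windows that shared a base were merged. A merged region was taken when it held a window from each of the 2 KD libraries and none from the 3 NS libraries. This gave 7135 regions of 399734, or 1.78%. Since the rule used the comparison between KD and NS, the presence of these regions in KD and their absence from NS is a description and carries no test.

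DCIS.COM is a human basal-like breast cancer cell line that models ductal carcinoma in situ. ChIP-exo had been performed on NS control cells, which carried a non-silencing construct, and on BCL9 KD cells, which carried a single shRNA against BCL9. The paper states that transduced cells were kept in puromycin, and it names no further treatment of the cultures for ChIP-exo. The BCL9 antibody was used on 3 NS and 2 BCL9 KD biological replicates, the antibody to serine-phosphorylated STAT3, called PS-727-STAT3 after the residue, on 3 NS and 2 BCL9 KD replicates, and a CTCF antibody on 1 NS sample as a positive control. An IgG sample was not analysed here, so the regions were not compared with a mock immunoprecipitation. Peak lists hold no protein or RNA level, so neither the loss of BCL9 in the KD cells nor the identity of the cells could be checked from them. What the BCL9 antibody pulled down from cells depleted of BCL9 cannot be told from the lists either.

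BCL9 is a co-activator of Wnt signaling that holds no DNA-binding domain known to read a sequence. It binds β-catenin on one side and the PHD finger proteins Pygopus 1 and Pygopus 2 on the other, and reaches chromatin through DNA-binding partners such as TCF/LEF factors. STAT3 binds DNA after phosphorylation of a tyrosine, and phosphorylation of the serine in PS-727-STAT3 modulates its activity. AP-1, a dimer of Jun and Fos family proteins, binds many enhancers of basal epithelial cells. In ChIP-exo an exonuclease trims the precipitated DNA up to the crosslink, and a peak pair is the left and right border of 1 such footprint.

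The sequences of 7 of the regions are given first, each read from GRCh37 (hg19) on the plus strand. They were picked by rank of signal among regions that overlapped no exon and were at most 300 bases long. Capitals mark the AP-1 string TGANTCA, which reads the same on both strands. The first 4 are the best-ranked regions over 1 kb from a transcription start site (TSS) that held the string, DAPP1 and CNOT10 are the best-ranked promoter regions, and ZNF516 is the best-ranked distal region without the string. Each is named by the protein-coding gene with the nearest TSS, which locates it and says nothing about which gene it acts on.
FLRT3 (chr20:14415145-14415303): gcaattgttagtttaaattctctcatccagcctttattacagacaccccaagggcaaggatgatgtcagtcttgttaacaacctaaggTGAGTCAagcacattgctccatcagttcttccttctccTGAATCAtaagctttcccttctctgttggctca
TOM1L2 (chr17:17824756-17824878): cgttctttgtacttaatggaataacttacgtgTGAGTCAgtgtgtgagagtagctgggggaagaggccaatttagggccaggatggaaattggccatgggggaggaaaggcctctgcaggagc
SGCE (chr7:94326796-94327003): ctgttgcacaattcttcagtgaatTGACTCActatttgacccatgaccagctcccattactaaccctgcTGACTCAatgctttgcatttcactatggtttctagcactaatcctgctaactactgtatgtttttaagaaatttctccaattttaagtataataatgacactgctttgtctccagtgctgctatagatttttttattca
DUSP10 (chr1:222003025-222003258): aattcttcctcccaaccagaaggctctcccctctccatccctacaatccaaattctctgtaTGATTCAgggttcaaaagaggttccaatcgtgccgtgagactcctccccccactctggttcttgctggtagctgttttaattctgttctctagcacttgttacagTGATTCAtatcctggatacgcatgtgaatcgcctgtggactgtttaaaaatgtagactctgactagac
DAPP1 (chr4:100736797-100737026): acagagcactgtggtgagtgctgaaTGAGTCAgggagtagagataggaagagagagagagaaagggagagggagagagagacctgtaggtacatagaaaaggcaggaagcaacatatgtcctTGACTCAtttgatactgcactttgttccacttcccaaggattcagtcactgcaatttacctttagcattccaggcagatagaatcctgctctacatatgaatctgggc
CNOT10 (chr3:32726313-32726492): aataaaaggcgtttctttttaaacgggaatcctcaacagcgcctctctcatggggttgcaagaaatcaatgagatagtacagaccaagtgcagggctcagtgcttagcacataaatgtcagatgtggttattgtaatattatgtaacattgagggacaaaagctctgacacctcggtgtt
ZNF516 (chr18:74271425-74271626): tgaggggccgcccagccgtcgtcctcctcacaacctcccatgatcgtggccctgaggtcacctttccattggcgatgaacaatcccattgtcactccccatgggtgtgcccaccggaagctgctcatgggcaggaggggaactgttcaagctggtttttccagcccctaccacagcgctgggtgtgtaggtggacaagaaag

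FLRT3, SGCE, DUSP10 and DAPP1 each held 2 AP-1 strings within the region and TOM1L2 held 1, while CNOT10 and ZNF516 held none. The N in the string allows any base. Both strings at DUSP10 read TGATTCA and the second at FLRT3 reads TGAATCA. The enriched words below that hold the whole string have C or G at this position. The FLRT3 and TOM1L2 regions lay in introns, SGCE, DUSP10 and ZNF516 between genes, and DAPP1 and CNOT10 within 1 kb of a TSS.

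Most of the regions were weak. The deposited signal of each library was a whole number of sequenced tags times a fixed step, so tags could be recovered, and the lists ended at a signal just over 3 in every library, which stood for different numbers of tags. The lowest peak pair held 7 tags in KD replicate 1 and 5 in KD replicate 2. It held 5, 9 and 6 tags in NS replicates 1, 2 and 3. A region without an NS window therefore had fewer than 5, 9 and 6 tags in a pair there, and was not shown to be empty. In the strongest pair of each knockdown-only region, KD replicate 1 had 7 to 40 tags with a median of 8, and KD replicate 2 had 5 to 35 tags with a median of 7. In 3737 regions (52.4%) at least 1 of the 2 KD libraries was at its lowest possible value, and in 895 both were. Only 10 regions had 20 or more tags in both. The Spearman correlation of tags between the 2 KD libraries over the 7135 regions was 0.197, given as a description.

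**Figure D1:**
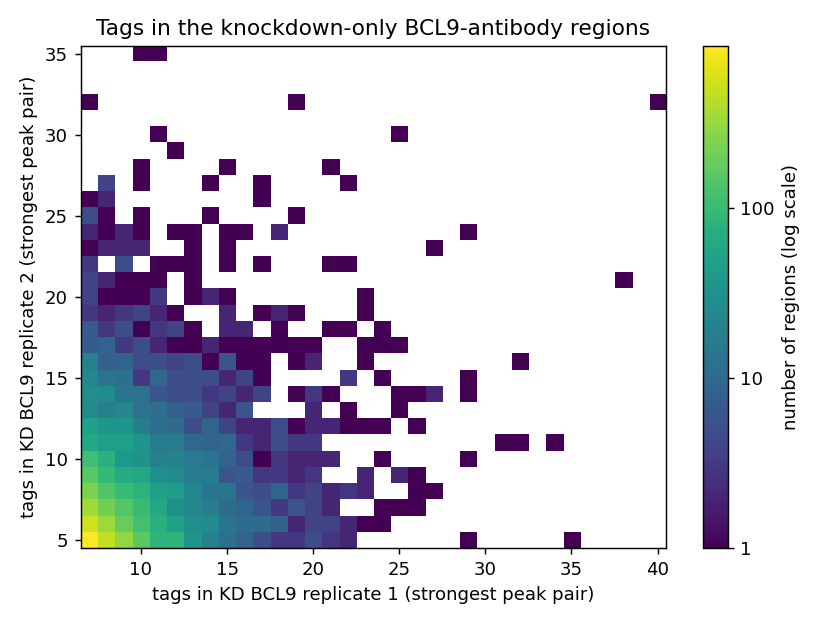
Tags of the strongest peak pair in KD BCL9 replicate 1 (x axis) and replicate 2 (y axis) for the 7135 knockdown-only regions, with the number of regions per combination as color on a log scale. The regions crowd in the corner at 7 and 5 tags, where each list ends, and few reach 20 tags in both libraries.

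The lists also differed in length. The 5 BCL9-antibody lists held 28690, 24728 and 148755 peak pairs in NS replicates 1 to 3 and 95586 and 336493 in KD replicates 1 and 2. Of the 21166 regions with windows in both KD libraries, the knockdown-only regions made up 33.7%, and this share fell steeply with tags. In KD replicate 1, 56.9% of the 4448 regions at 7 tags lacked an NS window. Of the 1967 regions with 24 or more tags, 1.78% (35 regions) lacked one. In KD replicate 2 the share went from 67.7% at 5 tags to 2.08% at 24 or more. Nearly all strong BCL9-antibody regions of the KD libraries thus had a window in at least 1 NS library.

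**Figure D2:**
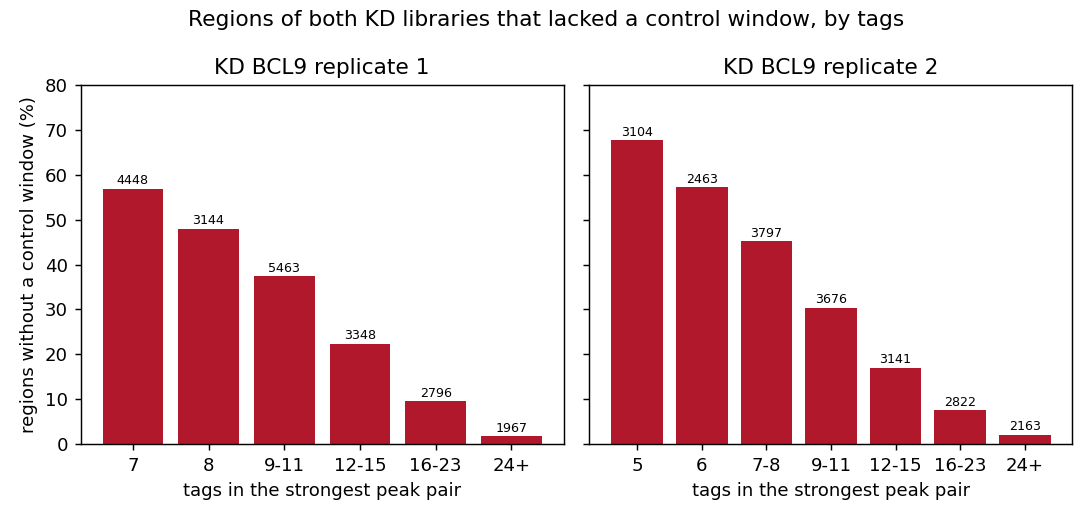
Percentage of the regions found in both KD libraries that lacked an NS window (y axis), by tags in the strongest pair of KD replicate 1 (left) and KD replicate 2 (right), with the number of regions above each bar. The bars descend from 56.9% to 1.78% on the left and from 67.7% to 2.08% on the right.

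The edge of the rule was close to many members. The gap to the nearest NS BCL9-antibody window had a median of 1254 bp. It was under 100 bp in 981 regions (13.7%), under 500 bp in 2514 (35.2%) and over 10 kb in 1261 (17.7%). Just outside the rule stood 6372 regions with both KD libraries and a single NS library. In 1561 of these the NS window was at the lowest tag number of its list.

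The count itself depended on the lengths of the lists. When all 5 lists were cut to their 24728 strongest pairs, 709 of 42930 merged regions had both KD libraries and no NS library, and 261 of the 709 overlapped a region of the full rule. The opposite pattern, at least 2 NS libraries and no KD library, held for 1152 regions (0.288%) in the full lists and for 1739 in the equal-length lists. Knockdown-only regions thus outnumbered the opposite pattern in the full lists and were outnumbered by it at equal length. The 2 rules do not ask for the same number of libraries, since all 3 NS libraries without a KD library occurred at 51 regions in the full lists and 245 at equal length. Without NS replicate 3, the longest NS list, the full rule gave 12498 regions. With KD replicate 2 alone as the KD group it gave 237043, and with KD replicate 1 alone 49945.

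A natural comparison for the knockdown-only regions is a set that also rests on exactly 2 libraries but cuts across the groups. This was the 16112 regions with a window in exactly 1 NS and exactly 1 KD library, called mixed-pair regions here, a set chosen after the data were seen. Of these, 10627 came from NS replicate 3 with KD replicate 2, the longest list of each group. The set thus rests mostly on a single pair of libraries, while every knockdown-only region also has a window in KD replicate 1. A second comparison was the 14031 regions found in both KD libraries and at least 1 NS library, called shared regions. In length, promoter share and the shares with PS-727-STAT3 or CTCF windows, the knockdown-only regions lay closer to the mixed-pair than to the shared regions. In the ratios of ETS and REL strings between region centre and flank, given below, they lay closer to the shared regions. For AP-1 strings this ratio lay between the 2 sets. The knockdown-only regions had a median length of 165 bp, against 163 bp in mixed-pair and 285 bp in shared regions. The mean GC content of the central 100 bp was 48.1% ± 10.2 (SD over 7135 regions), against 48.1% and 48.3%.

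By genomic class, 1166 knockdown-only regions (16.3%, 95% Wilson interval 15.5 to 17.2) lay within 1 kb of a protein-coding TSS. A further 247 (3.46%) overlapped an exon, 2762 (38.7%) lay in introns and 2960 (41.5%) between genes. The promoter share was 15.1% in mixed-pair regions (14.5 to 15.6), 11.4% in shared regions (10.9 to 12) and 7.83% in all merged regions. These intervals cover counting error only, and neighbouring regions are not independent. Among the knockdown-only regions the promoter share was 15.0% at 7 tags in KD replicate 1, 18.0% at 12 to 15 tags and 11.4% at 24 or more. In KD replicate 2 it was 15.9% at 5 tags and 6.67% at 24 or more. The best supported regions were thus the least often at promoters, though these last classes held 35 and 45 regions. The promoter share of shared regions fell too. It was 12.9% at 7 tags and 9.37% at 24 or more in KD replicate 1. In KD replicate 2 it was 16.7% at 5 tags and 9.82% at 24 or more.

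The sequences were searched for 23 sets of transcription factor strings on both strands. AP-1 stood out. The string TGANTCA was present in 1618 knockdown-only regions (22.7%), against 5.53% of windows of the same length placed 1 kb to each side. In the central 100 bp it was present in 15.4%, or 4.66 times the share in flanking 100 bp windows. The same ratio was 4.05 in mixed-pair regions, 6.01 in shared regions, 2.45 in the regions of at least 2 NS libraries without KD, and 1.85 in all merged regions. Of the 10 words of 8 letters with the highest ratio of centre to flank, 5 held the whole AP-1 string and 4 held all but 1 end letter of it. The highest was ATGAGTCA, present in the central 100 bp of 319 regions (4.47%), a ratio of 10.8, followed by ATGACTCA in 295 regions with a ratio of 10.2. These are letters that match, not measured AP-1 binding.

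**Figure D3:**
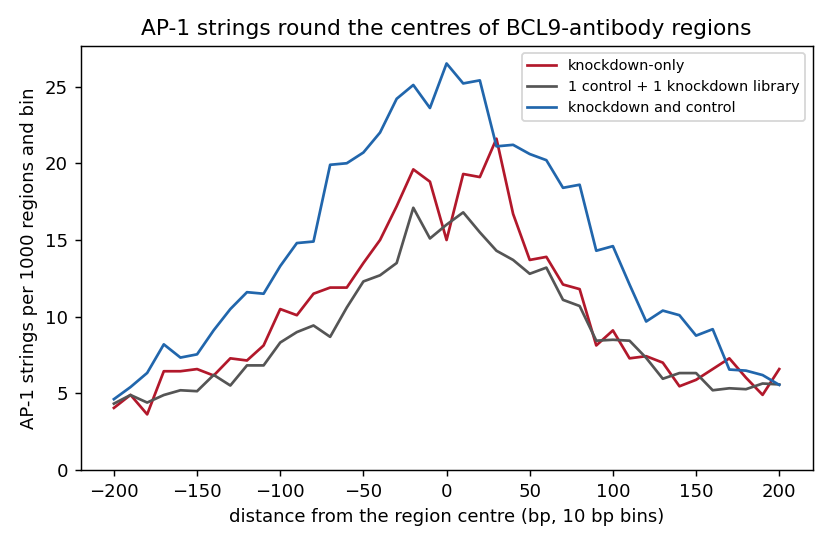
AP-1 strings per 1000 regions in 10 bp bins (y axis) by distance from the region centre (x axis) for knockdown-only, mixed-pair and shared regions. All sets peak near the centre. Round the centre the knockdown-only curve runs mostly above the mixed-pair curve and below the shared curve. The central bin is an exception to the first, with 15 strings in knockdown-only, 16 in mixed-pair and 26.5 in shared regions. At 30 bp the values are 21.6, 14.3 and 21.1.

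The AP-1 share climbed with support. In the central 100 bp it was 9.09% of the knockdown-only regions at 5 tags in KD replicate 2, 21.9% at 9 to 11 tags and 40.0% of the 45 regions with 24 or more. In shared regions of the same tag classes it was 14.6%, 19.8% and 24.7%. At 24 or more tags in KD replicate 1 it was 37.1% of 35 knockdown-only regions and 21.7% of shared regions.

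Strings of other factor families were less concentrated. ETS factors bind a core of CCGGAAG, which was present in 156 knockdown-only regions (2.19%). It was 3.30 times as frequent in the central window as in the flanks, against 3.29 in shared, 2.23 in mixed-pair and 1.58 in all merged regions. The REL string GGGANTTCC, read by NF-κB proteins, was present in 68 regions (0.953%) with a ratio of 2.90, against 2.51, 1.87 and 1.43. Rare strings of CTCF (10 regions), NRF1 (40) and the p53 family (41) had ratios of 2.29, 1.93 and 1.87. For C/EBP (TTGCNNAA) the ratio was 1.62, for SP/KLF (GGGCGG) 1.5, for TEAD (CATTCC) 1.40 and for RUNX (TGTGGT) 1.23. The STAT string TTCCNGGAA was found in 48 regions (0.673%), against 0.456% of same-length flanking windows, with a ratio of 1.05 in the central window, and the TCF/LEF string ATCAAAG in 180 (2.52%), against 2.32%, with a ratio of 0.985. In the central window both strings were about as frequent as in the flanks. The STAT ratio was 1.61 in shared, 1.42 in mixed-pair and 1.24 in all merged regions, and the TCF/LEF ratio 0.836, 0.972 and 0.958. The zinc-finger strings CCTGCC and CCTCCC were present in 39.4% of knockdown-only regions, against 35.9% of same-length flanking windows, with a ratio of 1.09.

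Promoter and distal regions differed in GC content and in the raw shares of strings. Among the 1166 promoter regions, AP-1 was present in 8.4%, ETS in 7.29% and SP/KLF in 26.2%, with a GC content of 56.1%. Among the 5969 distal regions, 1520 held AP-1 and 4449 did not. The distal regions with AP-1 had 45.4% GC, 1.45% held the ETS string and 4.34% the SP/KLF string. In those without AP-1 the values were 46.9%, 1.1% and 5.55%. The ratios of centre to flank differed less for SP/KLF, at 1.58 in promoter regions and 1.3 and 1.47 in distal regions with and without AP-1. For ETS these ratios were 4.0, 6.0 and 2.15. The ratio of 6.0 rests on few regions, since only 1.45% of the 1520 distal AP-1 regions held the string. Why the raw shares differed between classes was not tested. Distal regions with AP-1 had a median of 9 and 8 tags in KD replicates 1 and 2, against 8 and 6 in distal regions without it.

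PS-727-STAT3 windows, which the rule did not use, were present at most of these regions. At 24.3% of the knockdown-only regions no PS-727-STAT3 library had a window, at 10.4% all 5 had, and at 56.9% at least 1 NS library had one. Mixed-pair regions were close to this, with 24.3%, 10.2% and 57.7%. The same shares were 2.75%, 49.6% and 91.7% in shared regions, and 71.3%, 3.16% and 18.3% in all merged regions. Median length was 165 bp in knockdown-only, 285 bp in shared and 100 bp in all merged regions. A longer region has more room for a window. The window shares here and below, also for CTCF, were not compared at equal region length. By library, a window was present at 30.1%, 18.1% and 49.5% of the knockdown-only regions in NS replicates 1, 2 and 3. In KD replicates 1 and 2 it was present at 54.6% and 58.1%. Both KD values were above all 3 NS values. The means were 32.6% ± 15.8 (SD, n = 3) in NS and 56.3% ± 2.49 (SD, n = 2) in KD, a difference of 23.8 percentage points with p = 0.2 in a two-sided exact permutation test over the libraries. With 10 assignments the smallest p this design allows is 0.1, so it cannot reach 0.05. The PS-727-STAT3 lists held 118933, 98665 and 374089 pairs in NS and 415624 and 493174 in KD. With these lists cut to 98665 pairs each, the shares were 26.4%, 18.1% and 26.8% in NS and 27.5% and 27.4% in KD, a difference of 3.70 points (exact permutation p = 0.5).

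Relative to the shared regions, the log2 ratio of the window share was −1.28, −1.67 and −0.82 in NS and −0.70 and −0.65 in KD. The difference between KD and NS was 0.58 on the log2 scale (exact permutation p = 0.2), and 0.18 with lists of equal length (p = 0.3 by the same exact test). Relative to the mixed-pair regions, the log2 ratio was 0.01, −0.04 and 0.00 in NS and 0.05 and 0.03 in KD, a difference of 0.05. Both KD libraries were above all 3 NS libraries, with the smallest p the design allows (exact permutation p = 0.1). With equal-length lists this difference was 0.16, again with exact permutation p = 0.1. Relative to all merged regions, the log2 ratio was 1.85, 1.66 and 1.70 in NS and 1.74 and 1.67 in KD, a difference of −0.04 (exact permutation p = 0.9), so the sign turned with the comparison set. In number of regions the gap to mixed-pair regions is slight. At full length, PS-727-STAT3 windows of KD replicate 1 covered 54.6% of knockdown-only and 52.8% of mixed-pair regions.

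**Figure D4:**
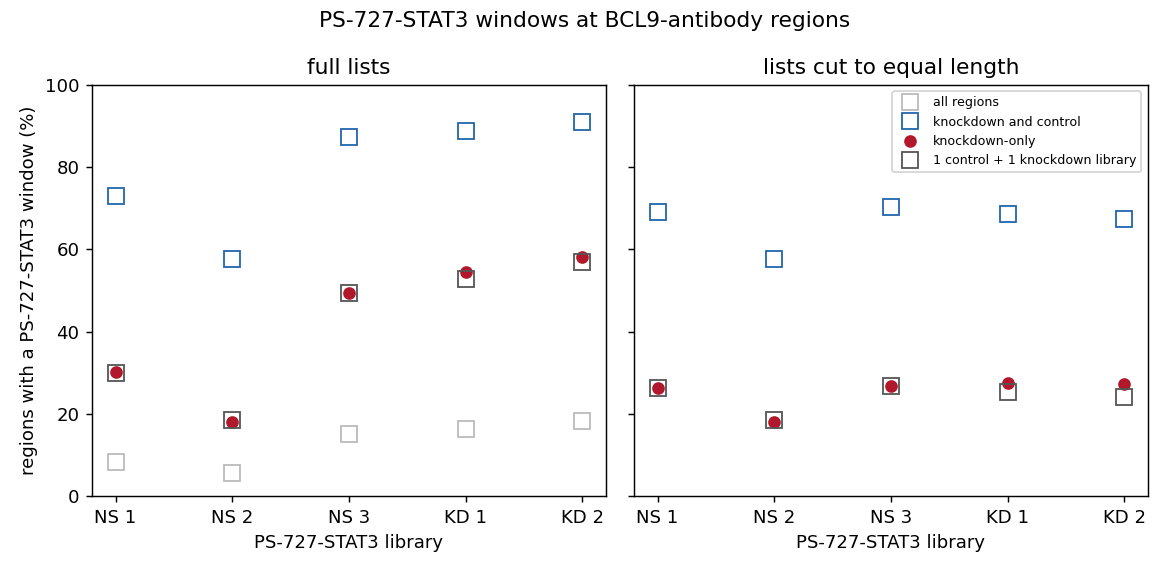
Percentage of BCL9-antibody regions with a PS-727-STAT3 window (y axis) in each of the 5 PS-727-STAT3 libraries (x axis), for full lists (left) and lists cut to equal length (right). Filled circles are the knockdown-only regions and open squares the comparison sets. The knockdown-only values lie on or just above the mixed-pair values in the KD libraries and far below the shared regions.

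PS-727-STAT3 windows of both KD and no NS library were found at 465 knockdown-only regions (6.52%), against 1.88% of all merged regions and 5.83% of mixed-pair regions. The opposite pattern, at least 2 NS and no KD library, was found at 73 (1.02%), against 0.388% of all merged regions. With lists of equal length, 128 regions (1.79%) had the first pattern, against 0.352% of all merged and 1.37% of mixed-pair regions, and 214 (3.00%) had the second, against 0.829% and 3.71%. In the knockdown-only regions the order of the 2 patterns thus turned with the length of the lists. The lower of the 2 KD tag numbers at the 465 regions had a median of 5, and it was 10 or more at 35 of them. The 3 regions with the highest such values, named after their values were seen, lay near ARHGAP11A, which encodes a GTPase-activating protein, SARM1, which encodes an NAD-cleaving enzyme of axons, and C11orf91. The ARHGAP11A region (chr15:32924080-32924230, in an intron) had 25 and 27 PS-727-STAT3 tags in KD replicates 1 and 2 and no listed pair in NS. It had 9 BCL9-antibody tags in each KD library and lay 11300 bp from the nearest NS BCL9-antibody window. The other 2 lay beside such a window. The SARM1 region had 7 and 7 BCL9-antibody tags and a gap of 0 bp, and the C11orf91 region 7 and 11 tags and a gap of 76 bp.

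The share of regions with a PS-727-STAT3 window was highest among the distal AP-1 regions. Among the 1520 distal regions with AP-1, 60.8%, 37.7% and 79.1% had a window in NS replicates 1 to 3, and 86.2% and 88.1% in KD replicates 1 and 2. Among the 4449 distal regions without AP-1 the values were 22.2%, 13.3% and 42.1% in NS and 46.9% and 50.7% in KD. Promoter regions were similar to the latter, with 20.2%, 10.7% and 39.1% in NS and 42.6% and 47.1% in KD. In each of the 5 libraries the distal AP-1 regions were above both other classes. All 5 PS-727-STAT3 libraries had a window at 29.5% of the distal AP-1 regions and at 4.37% of the promoter regions. The share of knockdown-only regions with any PS-727-STAT3 window also rose with BCL9-antibody tags, which were somewhat higher in the distal AP-1 regions. It went from 66.9% at 7 tags in KD replicate 1 to 100% at 24 or more. In KD replicate 2 it went from 61.6% at 5 tags to 97.8% at 24 or more. The classes were not compared at equal tags or equal length.

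CTCF, which marks insulators and loop anchors, had a window in its single NS library at 1009 knockdown-only regions (14.1%). The share was 15.7% in mixed-pair, 22.0% in shared and 7.55% in all merged regions. Most of these windows were weak, with a median of 6 tags. A strong CTCF pair, with 44 or more tags the 90th percentile of the CTCF list, lay at 165 regions (2.31%), against 2.76% of mixed-pair and 1.40% of shared regions. Promoter regions had a CTCF window at 19.7% and distal AP-1 regions at 11%.

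The 24 regions ranked best in both KD lists were described singly. Of these, 15 lay between genes, 5 in introns, 2 in exons and 2 at promoters, and 12 held the AP-1 string. All had a PS-727-STAT3 window in at least 1 library, 12 in all 5 libraries and 21 in both KD libraries. An NS BCL9-antibody window lay within 500 bp of 9 of them and within 100 bp of 6.

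The top region lay near ATPAF2, which encodes an assembly factor of the mitochondrial ATP synthase (chr17:17929572-17929819), with its centre at −1710 bp from the TSS. It had 40 and 32 BCL9-antibody tags in KD replicates 1 and 2, and an NS window began 28 bp away. Its PS-727-STAT3 tags were 12, 7 and 19 in NS and 16 and 15 in KD, so the groups overlapped. A second region on this part of chromosome 17, in an intron near TOM1L2, a gene of endosomal sorting, had 27 and 23 BCL9-antibody tags and an NS window 34 bp away. The TM4SF20 region had 38 and 21 tags, 2922 bp from the nearest NS window, and PS-727-STAT3 tags of 10, 0 and 37 in NS and 41 and 32 in KD. TM4SF20 encodes a membrane protein with 4 transmembrane passes.

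Several of the best-ranked regions lay far from any NS window. The FLRT3 region, near a gene for a cell adhesion and axon guidance protein, had 29 and 24 BCL9-antibody tags with the nearest NS window 8378 bp away. The SLC1A3 region, near a glutamate transporter gene, had 23 and 20 tags and a gap of 32566 bp. The RALA region, near the gene of a Ras-like GTPase, had 15 and 28 tags and a gap of 12641 bp. The last 2 had little PS-727-STAT3, with 0, 0 and 4 tags in NS and 6 and 0 in KD at SLC1A3, and 0, 0 and 5 in NS and 8 and 6 in KD at RALA.

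The region near PMAIP1, which encodes the BH3-only death protein NOXA, lay 153820 bp from its TSS and had 22 tags in each KD library. It was strong in PS-727-STAT3, with 41, 57 and 104 tags in NS and 106 and 161 in KD, and an NS BCL9-antibody window lay 9 bp from its edge. The DUSP10 region, near a phosphatase of the p38 and JNK kinases, had 19 and 25 BCL9-antibody tags, and 8, 15 and 17 PS-727-STAT3 tags in NS against 17 and 45 in KD. The KLF5 region, near a transcription factor of basal epithelium, had 23 and 19 BCL9-antibody tags, and 0, 7 and 11 PS-727-STAT3 tags in NS against 6 and 6 in KD. In PS-727-STAT3 tags, both KD libraries exceeded the NS libraries at PMAIP1, KD replicate 1 only narrowly so. At DUSP10 1 KD library only equalled the highest NS library, and at KLF5 the groups overlapped. Tags are not scaled between libraries. The deposited signal per tag was 0.942 in NS replicate 3 and 0.875 in KD replicate 1, so a narrow order in tags need not hold in signal.

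RGS1, a regulator of G protein signaling, was the only one of the 24 with PS-727-STAT3 windows in both KD and no NS library. Its region, between genes and 24817 bp from the TSS, had 21 and 22 BCL9-antibody tags and 21 and 25 PS-727-STAT3 tags in KD. At the opposite end, SPAG9, which encodes a JNK scaffold protein, had 32 and 16 BCL9-antibody tags and a single PS-727-STAT3 pair, of 3 tags in KD replicate 2. The promoter region of CNOT10, a subunit of the CCR4-NOT deadenylase, had 18 and 24 BCL9-antibody tags and a single PS-727-STAT3 pair of 6 tags in KD replicate 1. At the DAPP1 promoter region the tags were 10 and 35, with 25, 21 and 26 PS-727-STAT3 tags in NS and 43 and 56 in KD. DAPP1 encodes an adaptor that binds phosphoinositides.

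The remaining regions of the 24 were nearest to PPP1R3B, ZNF516, SGCE, SORCS1, UBE2E2, PITPNC1, SNX9, SYPL1, GPC1, ZNF608 and SOX11. Their BCL9-antibody tags ran from 11 to 29 in KD replicate 1 and from 15 to 35 in KD replicate 2. SNX9, a gene of endocytosis, had the most PS-727-STAT3 tags among these in NS, with 71, 46 and 96, and 94 and 103 in KD.

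**Figure D5:**
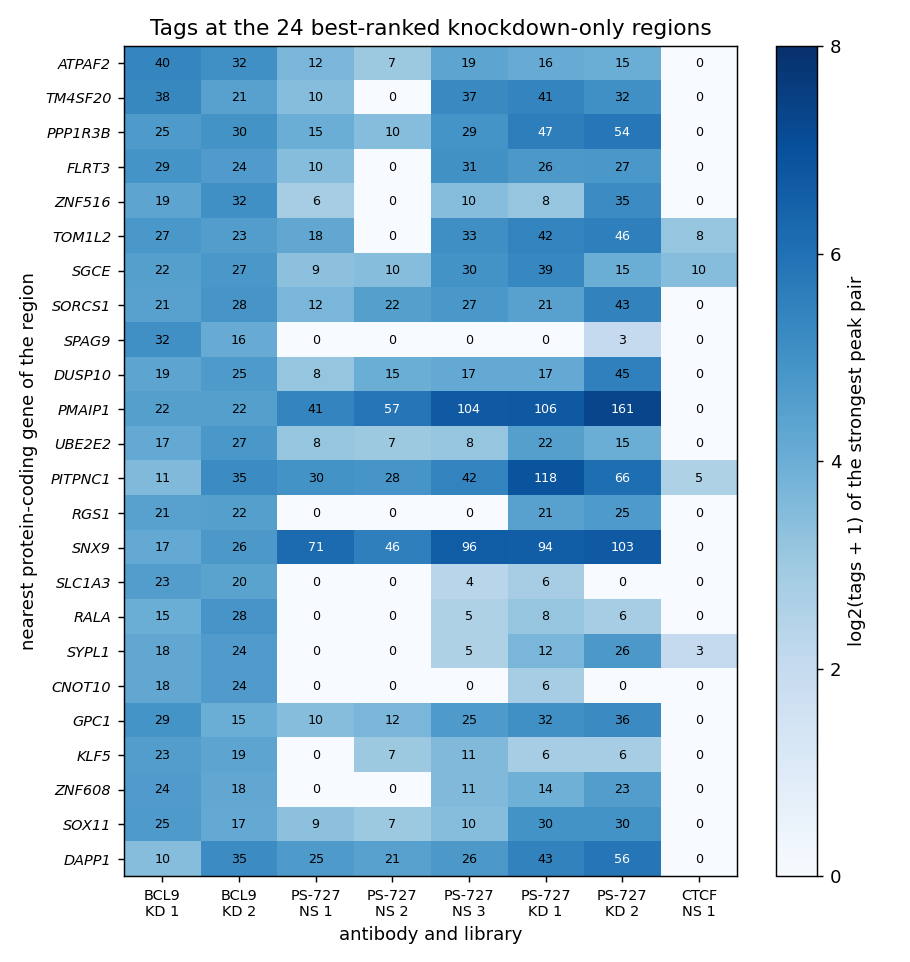
Tags of the strongest peak pair at the 24 best-ranked knockdown-only regions (rows, named by the nearest protein-coding gene) in the BCL9-antibody KD libraries, the 5 PS-727-STAT3 libraries and the CTCF library (columns), with color as log2(tags + 1) and 0 for no listed pair. PMAIP1 and SNX9 are high in all 5 PS-727-STAT3 libraries, and RGS1 in the KD libraries only.

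At the level of genes, 2044 of 20136 protein-coding genes (10.2%) had a knockdown-only region within 5 kb of a TSS. Most had a single one (1755 genes), 245 had 2, 35 had 3 and 9 had 4 or more. PLEKHG3, a gene for a guanine nucleotide exchange factor, had 5, and ANXA2, CDC42SE1, ERCC1, NBPF10, NFIB, PDE4DIP, RGS9 and TGIF1 had 4 each. The 10th place was tied between 35 genes and fell by alphabet to ACBD4. Genes with many annotated start sites had more room for a region, and NFIB, a nuclear factor I gene, had 18 start sites over 218 kb. NBPF10 and PDE4DIP lie among near-identical copies on chromosome 1, so reads there may be placed on the wrong copy. At RGS9, another regulator of G protein signaling, the 4 regions had 23, 12, 8 and 7 tags in KD replicate 1 and 12, 6, 6 and 7 in KD replicate 2, and no shared region lay within 5 kb of its start sites.

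Gene lists chosen with earlier results of these data known were then set beside the 10.2% of all genes. Of 16 integrin and matrix genes, 9 had a knockdown-only region within 5 kb of a TSS, and 10 had a shared region. The ITGAV region, 650 bp from a start site of the integrin αV gene (chr2:187453973-187454087), had 14 and 15 BCL9-antibody tags and lay 13634 bp from the nearest NS window. It had no listed PS-727-STAT3 pair in NS, none in KD replicate 1 and 4 tags in KD replicate 2. At MMP14, a membrane-bound matrix metalloproteinase, the tags were 12 and 11, and at ITGA6, the integrin α6 gene, 9 and 15 with an AP-1 string in the region. At LAMB3, which encodes a chain of laminin-332, they were 10 and 10. ITGA2, ITGB3, ITGA3 and CD44 were among those that followed at lower rank.

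Of the 21 STAT3 target and pathway genes, 7 had a region, namely BCL2L1, CCND1, IL6ST, JUNB, MYC, IRF1 and STAT3. The anti-apoptotic gene BCL2L1 had 14 and 9 BCL9-antibody tags at its promoter with no PS-727-STAT3 pair in any library. At the start site of CCND1, which encodes cyclin D1, the tags were 8 and 10, with 0, 0 and 10 PS-727-STAT3 tags in NS and 5 and 6 in KD. The promoter of IL6ST, which encodes the shared receptor chain gp130, had 7 and 12 BCL9-antibody tags, and 5, 0 and 18 PS-727-STAT3 tags in NS against 22 and 6 in KD. JUNB had 9 and 6 tags and no PS-727-STAT3 pair. At each of these 4 genes the PS-727-STAT3 groups overlapped or held no listed pair.

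Of 22 Wnt genes 5 had a region, BCL9L, CCND1, TCF7L1, MYC and TCF7. BCL9L, the paralog of BCL9, had 10 and 8 tags in an intron, 49 bp from an NS window. At TCF7L1, a TCF/LEF factor gene, the tags were 8 and 7, with no PS-727-STAT3 pair, and at MYC they were 9 and 6. BCL9 itself had no knockdown-only region within 5 kb of a start site. Of the 12 basal epithelial genes 5 had a region. SFN, the gene of 14-3-3σ, had 11 and 6 tags at its start site. KRT14 had 8 and 8, KRT5 8 and 7 and EGFR 7 and 7, all close to the lowest listed values, and TRIM29 was the fifth.

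Of the 12 AP-1 and CREB genes 4 had a region, MAFF with 12 and 7 tags, FOSB with 8 and 8, JUNB as above and FOSL2 with 7 and 7. Of 10 YAP and TEAD genes, CCN1 had 9 and 6 tags and WWTR1 8 and 5. Of 16 metal and stress response genes 2 had a region. DDIT4, an mTORC1 inhibitor induced by stress, had 24 and 10 tags 95 bp from an NS window, and MT2A, a metallothionein gene, 10 and 10 tags 33 bp from one. ERCC1 was the only one of 10 DNA repair genes, with 10 and 11 tags at its start site.

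The lists without a role in these pathways gave the background. Of 10 ribosomal and housekeeping genes 4 had a region, among them EEF1A1 with 12 and 9 tags, ACTB with 13 and 6 and RPL3 with 7 and 9. None of the 9 interferon response genes and none of the 11 genes of other tissues found in the annotation had one. Mixed-pair regions lay near 9 of the 16 integrin and matrix genes, 9 of the 21 STAT3 genes, 9 of the 22 Wnt genes and 7 of the 10 housekeeping genes, and near 18.4% of all genes. List shares above the share of all genes were thus seen with mixed-pair regions too. No list was tested.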

How the data were processed

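ChIP-exo libraries had been made by Peconic LLC. The authors deposited 1 list of peak pairs per sample, not pooled, in hg19 coordinates, with a signal value for each pair. The labels' processing notes name bcl2fastq, and no aligner was named in the sources at hand. The deposited signal was a whole number of tags times a library step, with a largest deviation under 1e-12 tags, and was divided by that step to give tags. The lists ended at a signal of 3.02 to 3.77 in all 11 libraries. The IgG sample was not analysed here.

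All listed pairs were used. Windows of 100 bp round midpoints were merged when they shared a base. Regions were annotated with protein-coding genes of GENCODE 44 on GRCh37, whose chromosome lengths held every pair. Promoter meant within 1 kb of a TSS, taken before exon, intron and intergenic. A region was ranked by the geometric mean of its rank over list length in both KD lists. The text names the 24 best-ranked regions, the 10 genes with most regions within 5 kb of a TSS, and up to 4 genes of each list. Some genes of these lists are not reported here by name. DDX58 and PECAM1 were not found in the annotation under these symbols. The members and lists were chosen with earlier results of these data known, and mixed-pair regions after the data were seen.

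PS-727-STAT3 shares were compared over libraries with exact permutation tests of the absolute difference of means. Labels describe the replicates as biological. The region rule found 1706 of 1706 regions planted in simulated lists. Alternatives were other window widths, equal-length lists, a minimum of 9 tags, a 500 bp distance to NS windows and leaving out each library. Python 3.11.15 with numpy 2.4.6, pandas 2.3.3, scipy 1.17.1 and matplotlib 3.10.9 was used.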

Additional observations from a re-analysis of the deposited data

How the results depend on the processing

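The number of knockdown-only regions, 7135, was 7053 and 7766 with windows of 50 and 200 bp. It was 709 with BCL9-antibody lists of equal length, 2260 with pairs of at least 9 tags and 4621 with no NS window within 500 bp. The promoter share, 16.3%, was 10.9%, 13.2% and 15.4% under these last 3 settings and 28.1% within 5 kb of a TSS. The AP-1 share, 22.7%, was 43.4%, 36.2% and 24.3% under the same 3 settings, 14.7% and 28.8% with windows of 50 and 200 bp, which change the length searched, and 15.4% in the central 100 bp. Leaving out 1 BCL9-antibody library at a time gave 7619 to 237043 regions, promoter shares of 6.95% to 16.6% and AP-1 shares of 5.70% to 28.4%. The high counts came without KD replicate 1 (237043) or KD replicate 2 (49945), where the rule asks for 1 library only, and without NS replicate 3 (12498).

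The difference of the PS-727-STAT3 share between KD and NS, 23.8 points, kept its direction under all alternatives run and was lowest, at 3.70 points, with PS-727-STAT3 lists of equal length. Leaving out 1 library gave 6.38 to 32.2 points, with 6.38 and 9.92 without BCL9-antibody KD replicate 1 and 2. The log2 ratio to shared regions, 0.58, was 0.37 to 0.80 when 1 library was left out, the lowest without PS-727-STAT3 NS replicate 2. With BCL9-antibody lists of equal length it was 0.27, and with PS-727-STAT3 lists of equal length 0.18. With mixed-pair regions as the comparison, added after the data were seen, it was 0.05. With all merged regions as the comparison, also added later, its direction turned, at −0.035. No p in this design can pass 0.05, so these fits say nothing about significance.

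NS and KD libraries share replicate numbers 1 and 2 only, and the labels do not say that a number marks a shared culture or day. As a replicate block, the mean difference of same-numbered PS-727-STAT3 libraries was 32.2 points and 0.80 on the log2 ratio, with exact permutation p = 0.5 for each, the smallest 2 pairs allow. Deviations of same-numbered libraries from their group means correlated at r = 0.01 for number 1 and −0.02 for number 2 over 399734 regions.

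Tag numbers limit the rule. Members lay at a median of 8 and 7 tags, 1 and 2 tags above the lowest listed values of 7 and 5.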

Other observations

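Knockdown-only regions were spread over all chromosomes. As a share of the regions found in both KD libraries they ranged from 28.5% on chromosome 18 to 38.1% on chromosome X. Per Mb of sequence they ranged from 0.631 on chromosome X to 4.88 on chromosome 17. The 1 Mb bins with most of them also held many shared regions. These were chr14:50000001-51000000 with 25 knockdown-only and 25 shared regions, chr1:145000001-146000000 with 22 and 19, and chr17:17000001-18000000 with 22 and 23. The last holds the ATPAF2 and TOM1L2 regions.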
